A study of Mus musculus with 8 samples.

Results

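Genes of the cell cycle and of DNA replication were examined in mouse liver, as 47 listed genes of 45706 counted genes. The list was given by symbol, and all 47 were found in the count table. They were grouped by role as 16 genes of the G1/S transition, 11 of DNA replication and 20 of G2 and mitosis. The samples were livers of 4 C57BL/6 mice labelled HuR KO and 4 labelled HuR WT, with 1 library per mouse. HuR is the RNA-binding protein encoded by Elavl1. Which exons were deleted, in which cells, and at what age livers were taken is not given in the sources used here. These mice carry animal numbers that form a pair of series. KO replicates 3 and 4 and WT replicate 3 are numbered from 98 to 100, and the other 5 mice have 4-digit numbers. What separates the series is not stated.

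A dividing cell passes G1, copies its DNA in S phase, and separates the copies in mitosis. D-type cyclins with the kinases Cdk4 and Cdk6 start the passage by phosphorylating the retinoblastoma protein, which then releases E2F transcription factors. E2F factors switch on replication genes, and later a second wave of genes, driven by Foxm1 and B-Myb, builds the spindle. Adult hepatocytes are mostly quiescent but enter the cycle after tissue loss, and many are polyploid. HuR binds AU-rich elements of mRNAs, and in human cell lines it has been reported to bind the mRNAs of cyclin A and cyclin B1.

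Total gene counts were 25377376 to 27626128 per library labelled KO and 18649618 to 31249286 per library labelled WT. Elavl1 averaged 50.02 ± 4.33 CPM, the read count scaled to a common library size, in the libraries labelled KO and 42.0 ± 6.41 CPM in those labelled WT (SD, n = 4 each). It was thus not lower in the libraries labelled KO (log2 fold change 0.25, SE 0.11, edgeR adjusted p = 0.258). Because the deleted exons are unknown, the gene count cannot check the labels, and all directions below are between libraries labelled KO and libraries labelled WT. WT replicate 3 stood apart from its group. Its distance over all tested genes, as a root-mean-square difference in log2 CPM, averaged 0.586 to the KO libraries and 0.597 to the other WT libraries. The summed level of the 10 hepatocyte markers, Alb among them, was 116869 to 138795 CPM in the libraries labelled KO and 127819 to 144159 CPM in those labelled WT. In whole liver, fewer cells of a type and less RNA per cell cannot be told apart.

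Few cell cycle genes were called between the labels, and the fold changes of most mitotic genes had a wide SE. Cenpq, a subunit of the inner kinetochore, was lower in every library labelled KO and was the 1 member that passed the test. Of the 47 members, 40 had enough reads to be tested, 0 rose, 1 fell and 39 were not called at an edgeR quasi-likelihood adjusted p under 0.05 (Benjamini-Hochberg over all 14645 genes tested). Over all tested genes 3.69% were called, 2.32% higher and 1.37% lower, so the share among the members was near that of all genes. At an unadjusted p under 0.05 there were 5 of 40 members, namely Ccnd3, Cdk4, Rb1, Rrm2 and Cenpq, against 18% of all genes. The groups did not overlap for 5 of 40 members, against 11.2% of all genes. The median log2 fold change was −0.11 over the 40 tested members and −0.00 over all tested genes. That of the members was −0.16 without KO replicate 3, −0.02 without WT replicate 1, −0.24 among the 4-digit animals and 0.07 among those numbered 98 to 100. The call of Cenpq was lost without any 1 of the 8 libraries other than WT replicate 3. Without WT replicate 3, 3 members were called higher, namely Ccnd1, Ccnd2 and Cdk4, and 2 lower, namely Rrm2 and Cenpq. In that comparison 8.32% of all genes were called, 4.75% higher and 3.57% lower.

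**Figure D1:**
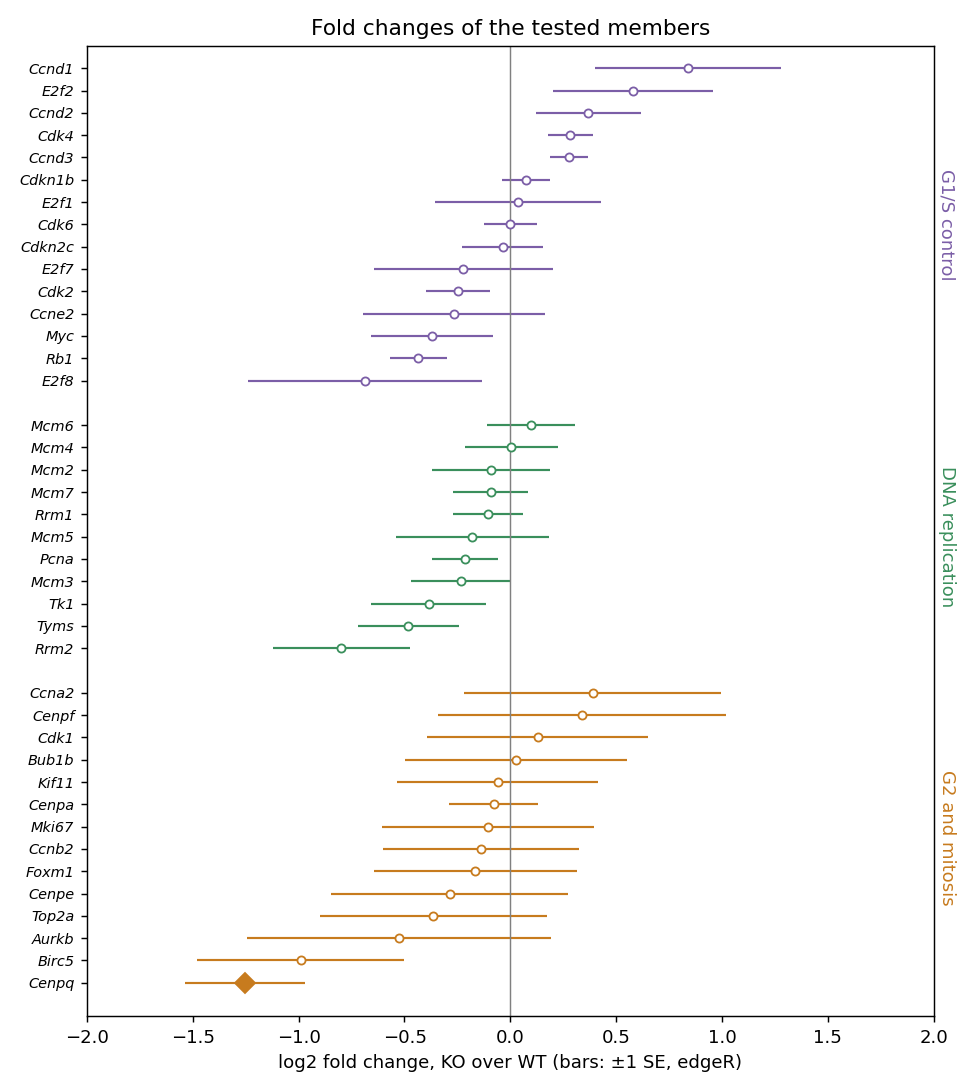
Log2 fold changes of the 40 tested members, libraries labelled KO over those labelled WT, in 3 groups by role, with bars of 1 SE from edgeR. The filled diamond is Cenpq, the 1 member called, and open circles were not called; the bars of most mitotic genes are wide.

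The members differed widely in level. TPM, the transcript abundance corrected for gene length, showed G1/S regulators and some replication genes at moderate levels and mitotic genes near the floor. Ccnd1, Cdk4 and Cdkn1b were the most abundant G1/S members, with means over the 8 libraries of 32.4, 23.9 and 18.6 TPM. Pcna, the sliding clamp of DNA polymerases, led the replication genes at 13.2 TPM, followed by Tk1 at 7.94 TPM and Rrm2 at 5.94 TPM. Among the genes of G2 and mitosis the highest were Cenpa at 1.97 TPM, Cenpq at 1.39 TPM and Ccnb2 at 0.839 TPM. The lowest was Ccnb1, which encodes cyclin B1, at 0.0517 TPM. The 7 members that the low-count filter left out were Ccne1 of the G1/S group and Ccnb1, Plk1, Aurka, Cdca8, Bub1 and Cdc20 of the mitotic group. Ccnb1 was counted 7 times in KO replicate 3, 6 times in WT replicates 1 and 2 each, and 0 times in the other 5 libraries.

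**Figure D2:**
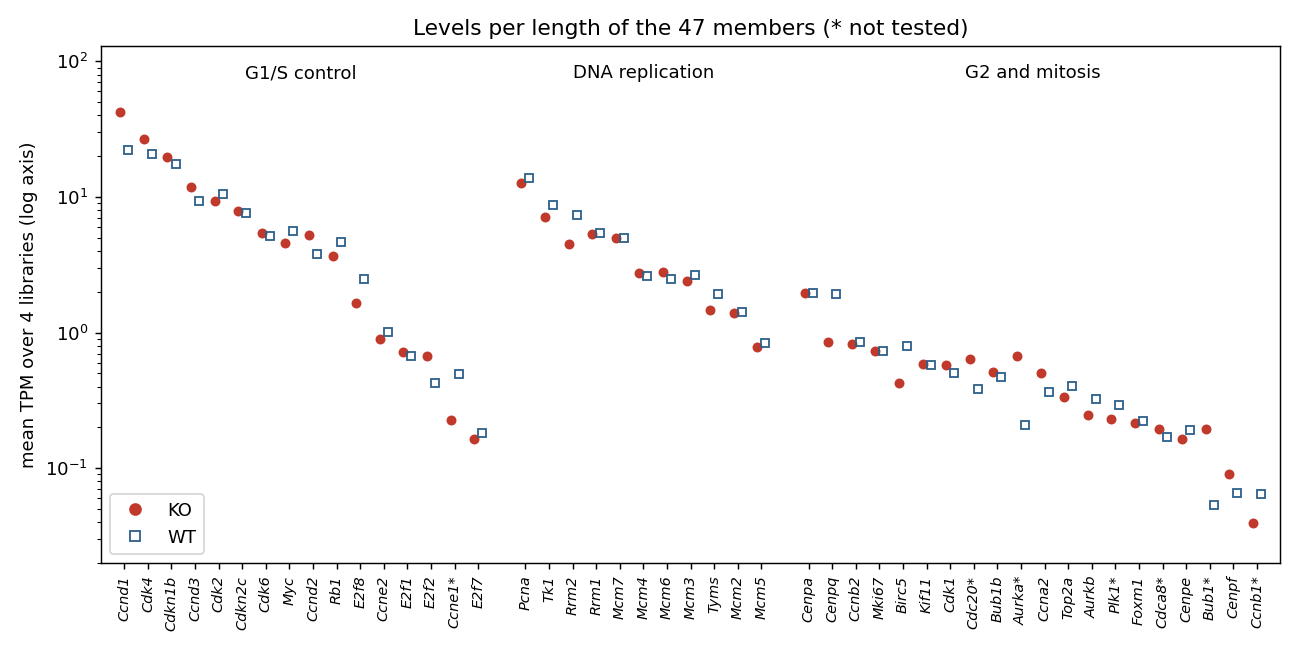
Mean TPM of the 47 members over 4 libraries labelled KO (filled circles) and 4 labelled WT (open squares), on a log axis, ordered by level within each role; an asterisk marks the 7 members that were not tested. G1/S genes reach from Ccnd1 at 42.4 and 22.4 TPM (KO and WT) down to E2f7 at 0.164 and 0.183 TPM, and the mitotic genes lie at 1.97 TPM or below.

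Among the 16 genes of the G1/S transition 15 were tested, 0 rose and 0 fell. The median log2 fold change was −0.00, with values from −0.69 to 0.84. The median ranged from −0.07 to 0.07 when single libraries were left out, and was 0.17 among the 4-digit animals. Fold changes were positive for 7 genes and negative for 8.

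Ccnd1, the D cyclin that rises when hepatocytes enter the cycle (ENSMUSG00000070348, mm10 chr7:144929931-144939869, minus strand), was at 57.2, 41.5, 81.7 and 86.1 CPM in KO replicates 1 to 4 and at 22.9, 25.4, 70.0 and 30.1 CPM in WT replicates 1 to 4. The groups overlapped, because WT replicate 3 lay above KO replicates 1 and 2. Its log2 fold change was 0.84 (SE 0.44, edgeR adjusted p = 0.384). Within the 4-digit animals both KO libraries lay above all 3 WT libraries, with a log2 fold change of 0.92 (SE 0.15, edgeR adjusted p = 0.0052, with 2.48% of all genes called, 1.43% higher). Among the animals numbered 98 to 100 it was 0.26 (SE 0.19, edgeR adjusted p = 0.76, with 0.512% of all genes called). There the WT side is 1 library, which has no spread of its own, and the spread was pooled from a fit over both number series. With the number series as a covariate Ccnd1 was called higher (log2 fold change 0.67, SE 0.15, edgeR adjusted p = 0.0296), where 4.94% of all genes were called, 2.84% higher. Without WT replicate 3 the log2 fold change was 1.35 (SE 0.28, edgeR adjusted p = 0.033).

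The level of Ccnd1 also moved with the animal numbers. Animals numbered 98 to 100 had a higher level than the 4-digit animals at the same genotype label, by a log2 difference of 1.06 (SE 0.15, edgeR adjusted p = 0.0073). The KO libraries numbered 98 to 100 both lay above the 4-digit KO libraries. On the WT side this comparison rests on WT replicate 3 alone. Ccnd1 was the 1 member called in that comparison, in which 2.41% of all genes were called. Ccnd2, a second D cyclin, was at 20.0, 17.7, 19.1 and 23.9 CPM in KO replicates 1 to 4 and at 11.1, 14.5, 25.2 and 11.4 CPM in WT replicates 1 to 4. Here WT replicate 3 was the highest of all libraries and the other 3 WT libraries were the lowest. The log2 fold change was 0.37 (SE 0.25, edgeR adjusted p = 0.488) over the 8 libraries and 0.71 without WT replicate 3 (SE 0.14, edgeR adjusted p = 0.00739).

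Ccnd3, the third D cyclin (chr17:47505051-47599691, plus strand), was at 45.2, 38.0, 45.5 and 42.9 CPM in KO replicates 1 to 4 and at 34.0, 37.0, 36.9 and 33.6 CPM in WT replicates 1 to 4. Cdk4, a kinase partner of the D cyclins (chr10:127063534-127067920, plus strand), was at 36.1, 36.5, 35.5 and 35.0 CPM in KO replicates 1 to 4 and at 23.9, 29.4, 34.4 and 29.8 CPM in WT replicates 1 to 4. For both genes every library labelled KO lay above every library labelled WT, by a narrow margin. Their log2 fold changes of 0.28 each were not called (SE 0.091 for Ccnd3 and 0.11 for Cdk4, edgeR adjusted p = 0.11 and 0.175). Without overlap, the exact two-sided permutation p of their log2 CPM is fixed at 0.0286, the smallest that 4 against 4 libraries allow. It therefore adds no support beyond the lack of overlap. Over all tested genes 6.19% did not overlap with KO higher. Cdk4 was called higher without WT replicate 3 (log2 fold change 0.37, SE 0.10, edgeR adjusted p = 0.0374), and Ccnd3 under none of the 19 alternatives.

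Rb1, which encodes the retinoblastoma protein (chr14:73183673-73325822, minus strand), was at 8.09, 9.64, 9.98 and 8.23 CPM in KO replicates 1 to 4 and at 13.4, 11.5, 12.8 and 10.8 CPM in WT replicates 1 to 4. Every library labelled KO lay below every library labelled WT, a pattern that 5.01% of all genes showed. Its log2 fold change was −0.43 (SE 0.13, edgeR adjusted p = 0.0902, 95% interval 0.606-fold to 0.902-fold before adjustment). DESeq2 called Rb1 lower at −0.44 (adjusted p = 0.0346), and it called 7.57% of all genes, 3.38% lower. The kinase inhibitor gene Cdkn1b, which encodes p27, was at 37.1, 36.9, 34.0 and 38.2 CPM in KO replicates 1 to 4 and at 40.5, 38.3, 31.4 and 28.3 CPM in WT replicates 1 to 4. Its WT libraries spanned the KO libraries (log2 fold change 0.08, SE 0.11, edgeR adjusted p = 0.788).

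**Figure D3:**
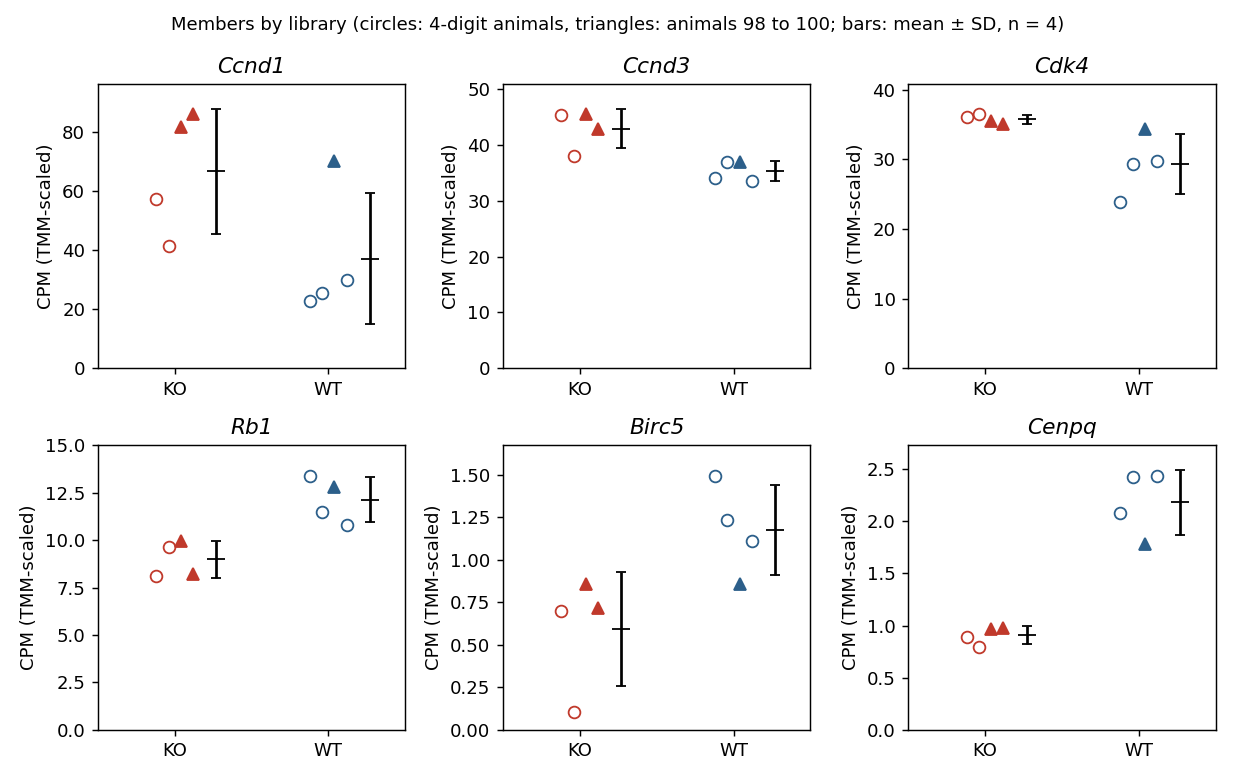
CPM of 6 members by library, libraries labelled KO left of those labelled WT, with circles for the 4-digit animals, filled triangles for the animals numbered 98 to 100, and the mean ± SD (n = 4) beside each group. For Ccnd1, KO replicates 1 and 2 at 57.2 and 41.5 CPM lie below WT replicate 3 at 70.0 CPM, whereas for Cenpq all 4 KO points lie at 0.978 CPM or below and all WT points at 1.78 CPM or above.

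E2F factors and Myc had no common direction. E2f2, an activating E2F, was at 0.89, 1.35, 1.63 and 1.47 CPM in KO replicates 1 to 4 and at 1.42, 0.617, 0.595 and 0.943 CPM in WT replicates 1 to 4 (log2 fold change 0.58, SE 0.38, edgeR adjusted p = 0.46). E2f8, a repressor E2F that takes part in hepatocyte polyploidization, was at 2.98, 5.17, 3.03 and 3.46 CPM in KO replicates 1 to 4 and at 1.86, 4.81, 13.0 and 3.72 CPM in WT replicates 1 to 4. WT replicate 3 was the highest and WT replicate 1 the lowest of all 8 libraries. Over all libraries the log2 fold change was −0.69 (SE 0.55, edgeR adjusted p = 0.581), and 0.09 without WT replicate 3.

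Myc, a transcription factor that promotes growth and cell cycle entry, was at 5.88, 8.11, 3.57 and 3.12 CPM in KO replicates 1 to 4 and at 5.50, 5.14, 8.36 and 7.82 CPM in WT replicates 1 to 4. The KO libraries of the animals numbered 98 to 100 were the lowest of all 8. The log2 fold change was −0.37 (SE 0.29, edgeR adjusted p = 0.553), with 0.20 among the 4-digit animals and −1.32 among those numbered 98 to 100. The difference between the series did not pass the test for Myc (log2 difference 1.52, edgeR adjusted p = 0.406) or for E2f8 (2.25, adjusted p = 0.406), and edgeR called it for 0 members and for 0.0205% of all genes. Taken as 4-digit minus 98 to 100, it was larger in size and negative for the mitotic genes Ccna2 (−4.54), Cenpe (−2.98), Cenpf (−2.61) and Cdk1 (−2.32). For every gene this difference rests on WT replicate 3, the only WT library numbered 98 to 100, where Ccna2 had 2 reads. It therefore cannot separate the number series from that library.

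The other tested G1/S genes were Ccne2, Cdk2, Cdk6, Cdkn2c, E2f1 and E2f7, and none of these 6 was called or free of overlap. Cdk2, the partner of E cyclins, was at 9.39 TPM in the libraries labelled KO and 10.5 TPM in those labelled WT, and the kinase inhibitor gene Cdkn2c at 7.91 TPM (KO) and 7.67 TPM (WT). Cdk6 lay at 5.4 TPM (KO) and 5.11 TPM (WT). Ccne1, which encodes cyclin E1 and was not tested, was counted 6, 0, 6 and 14 times in KO replicates 1 to 4. In WT replicates 1 to 4 it was counted 33, 16, 12 and 0 times.

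All 11 replication genes were tested, 0 rose and 0 fell. The fold changes were negative for 9 and positive for 2, with a median log2 fold change of −0.18 and values from −0.80 to 0.10. Dropping single libraries moved this median both ways. It was −0.26 when KO replicate 2 or WT replicate 4 was dropped, and −0.24 when WT replicate 3 was. Dropping KO replicate 4 brought it to −0.08, dropping WT replicate 1 to −0.03 and dropping WT replicate 2 to −0.11. By number series it was −0.23 in the 4-digit animals and 0.03 in those numbered 98 to 100. The most negative values were those of Rrm2, Tyms and Tk1. Rrm2, the small subunit of ribonucleotide reductase (chr12:24708241-24714146, plus strand), was at 4.41, 6.59, 4.04 and 5.38 CPM in KO replicates 1 to 4 and at 13.9, 8.63, 3.93 and 9.21 CPM in WT replicates 1 to 4. All WT libraries but replicate 3, the lowest of all 8, lay above all KO libraries. The log2 fold change was −0.80 (SE 0.32, edgeR adjusted p = 0.224), and it was −1.05 without WT replicate 3 (SE 0.21, edgeR adjusted p = 0.00739).

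Tyms, the thymidylate synthase gene, was at 2.63, 4.20, 5.09 and 2.71 CPM in KO replicates 1 to 4 and at 4.05, 5.75, 5.02 and 5.66 CPM in WT replicates 1 to 4 (log2 fold change −0.48, SE 0.24, edgeR adjusted p = 0.303). Tk1, the thymidine kinase gene of dividing cells, was at 12.9, 10.9, 18.7 and 18.0 CPM in KO replicates 1 to 4 and at 26.8, 21.9, 19.3 and 10.8 CPM in WT replicates 1 to 4 (log2 fold change −0.39, SE 0.27, edgeR adjusted p = 0.515). The groups overlapped for both genes. Pcna was at 10.1, 13.9, 12.1 and 13.5 CPM in KO replicates 1 to 4 and at 15.9, 17.5, 11.2 and 12.9 CPM in WT replicates 1 to 4 (log2 fold change −0.21, SE 0.16, edgeR adjusted p = 0.52), again with overlap. The 6 subunits of the Mcm helicase, which unwinds DNA at the fork, were measured apart, and none was called or free of overlap. Mcm7 was the most abundant of them per length, at 4.96 TPM in the libraries labelled KO and 5.02 TPM in those labelled WT, and Mcm5 the least, at 0.787 TPM (KO) and 0.84 TPM (WT). Rrm1, the large subunit of ribonucleotide reductase, was at 5.33 TPM (KO) and 5.44 TPM (WT) and was not called.

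The spread of the replication genes between mice was about as large as the gap between the labels. The mean log2 CPM of the 11 genes was 2.11 to 2.53 in the libraries labelled KO and 2.32 to 2.83 in those labelled WT. The group means were 2.32 ± 0.182 (KO) and 2.53 ± 0.23 (WT) (SD, n = 4 each). WT replicate 1 was the highest library for 8 of the 11 genes. The summed markers of lymphocytes and of neutrophils and myeloid precursors were also highest in that library. Those of macrophages were highest in KO replicate 3, at 570 CPM, against 511 CPM in WT replicate 1. The summed level of 12 lymphocyte markers was 9.44 to 12.8 CPM in the libraries labelled KO, 23.0 CPM in WT replicate 1 and 11.8 to 15.1 CPM in the other WT libraries. For 9 markers of neutrophils and myeloid precursors it was 2.32 to 4.58 CPM in the libraries labelled KO, 9.19 CPM in WT replicate 1 and 2.61 to 6.54 CPM in the other WT libraries. Of the lymphocyte markers 0 of 10 tested were called, as were 0 of 4 tested markers of neutrophils and myeloid precursors. Their part in the levels of the replication genes was not tested.

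**Figure D4:**
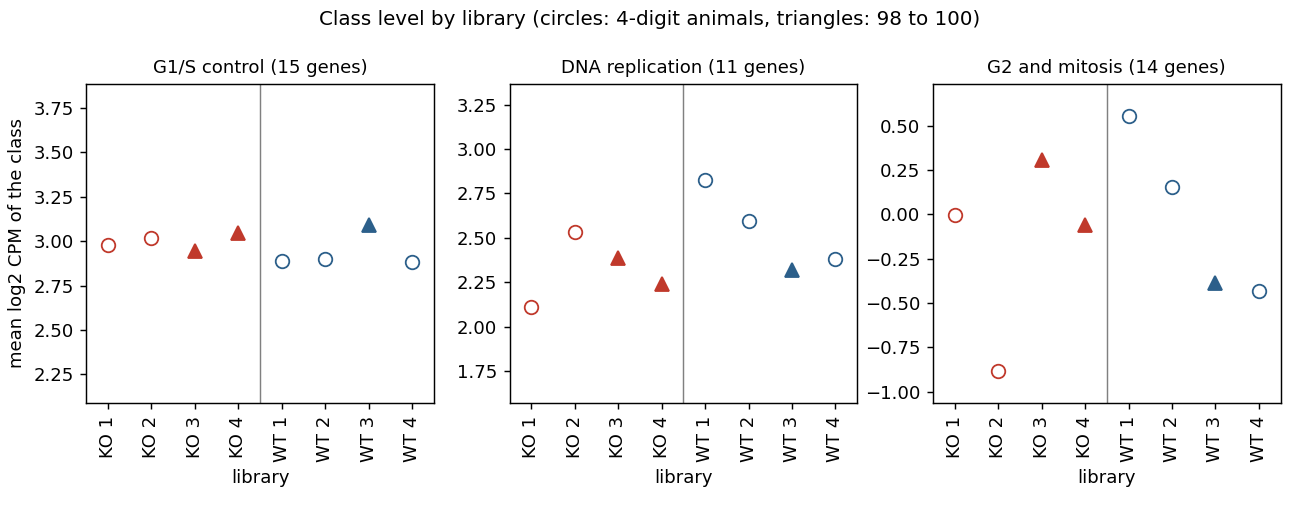
Mean log2 CPM of the tested members of each role by library, labelled KO left of labelled WT, with circles for the 4-digit animals and filled triangles for those numbered 98 to 100; the axes span the same log2 range. The G1/S mean is nearly level, from 2.88 to 3.09, KO replicate 2 is the lowest for mitosis at −0.88, and WT replicate 1 is the highest for replication at 2.83 and for mitosis at 0.56.

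Of the 20 genes of G2 and mitosis 14 were tested, 0 rose and 1, Cenpq, fell. The median log2 fold change was −0.12, with values from −1.26 to 0.39. It was −0.02 without KO replicate 2, −0.31 without KO replicate 3, and −0.19 without KO replicate 4. Leaving out WT replicate 1, 3 or 4 gave −0.03, −0.20 and −0.30. Among the 4-digit animals it was −0.56, among those numbered 98 to 100 it was 0.45, and with limma-voom it was −0.07. The SE of the log2 fold change was 0.21 for Cenpa, 0.28 for Cenpq and 0.46 to 0.72 for the other 12 tested genes. The mean log2 CPM of the 14 genes was −0.88 to 0.30 in the libraries labelled KO and −0.43 to 0.56 in those labelled WT, so that each group spanned more than the gap of 0.13 between the group means.

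The proliferation marker Mki67, which encodes the antigen Ki-67, was at 3.14, 1.59, 5.13 and 2.18 CPM in KO replicates 1 to 4 and at 6.12, 3.45, 2.05 and 1.16 CPM in WT replicates 1 to 4. Both the highest and the lowest library were labelled WT. Mki67 had a log2 fold change of −0.11 (SE 0.50, edgeR adjusted p = 0.944), and its 95% interval before adjustment, 0.427-fold to 2.03-fold, reached well to both sides of no change. Top2a, the DNA topoisomerase of dividing cells, was at 0.968, 0.277, 2.33 and 1.39 CPM in KO replicates 1 to 4 and at 1.53, 2.22, 1.98 and 0.555 CPM in WT replicates 1 to 4 (log2 fold change −0.36, SE 0.54, edgeR adjusted p = 0.781).

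Cdk1, the main mitotic kinase, averaged 0.819 ± 0.53 CPM in the libraries labelled KO and 0.76 ± 0.345 CPM in those labelled WT (log2 fold change 0.13, SE 0.52, edgeR adjusted p = 0.933). Ccna2, which encodes cyclin A2, averaged 0.845 ± 0.387 CPM in the libraries labelled KO and 0.651 ± 0.451 CPM in those labelled WT (log2 fold change 0.39, SE 0.61, edgeR adjusted p = 0.795). The cyclin B2 gene Ccnb2 was at 0.735, 0.485, 0.388 and 0.489 CPM in KO replicates 1 to 4 and at 0.729, 0.617, 0.694 and 0.222 CPM in WT replicates 1 to 4 (log2 fold change −0.14, SE 0.46, edgeR adjusted p = 0.918). None of these genes separated the groups.

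Members of the chromosomal passenger complex, which corrects chromosome attachment to the spindle, were scarce. Birc5, the survivin gene (chr11:117849251-117855743, plus strand), was at 0.697, 0.104, 0.855 and 0.714 CPM in KO replicates 1 to 4 and at 1.49, 1.23, 0.859 and 1.11 CPM in WT replicates 1 to 4. The groups did not overlap, but KO replicate 3 and WT replicate 3 lay side by side. Birc5 rested on 3 to 22 reads per library labelled KO and 20 to 41 per library labelled WT, and it was not called (log2 fold change −0.99, SE 0.49, edgeR adjusted p = 0.304). Aurkb, the kinase of that complex, was at 0.348, 0, 0.388 and 0.451 CPM in KO replicates 1 to 4 and at 0.364, 0.617, 0.562 and 0.111 CPM in WT replicates 1 to 4 (log2 fold change −0.52, SE 0.72, edgeR adjusted p = 0.76). Cenpa, which encodes the histone variant of centromeres, is not part of that complex. It was at 5.30, 3.85, 3.77 and 6.02 CPM in KO replicates 1 to 4 and at 5.36, 5.88, 3.80 and 4.99 CPM in WT replicates 1 to 4 (log2 fold change −0.08, SE 0.21, edgeR adjusted p = 0.894).

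The other tested mitotic genes were Foxm1, the transcription factor of the mitotic gene wave, Bub1b of the spindle checkpoint, the motors Kif11 and Cenpe, and the kinetochore gene Cenpf. None of these 5 was called or free of overlap, and their mean levels were 0.0909 TPM (Cenpf) to 0.59 TPM (Kif11) in the libraries labelled KO and 0.0657 TPM to 0.576 TPM for the same genes in those labelled WT. Of the 6 mitotic genes left untested, Aurka, a spindle kinase gene, was counted 23, 6, 30 and 14 times in KO replicates 1 to 4 and 6, 9, 0 and 6 times in WT replicates 1 to 4. Bub1, a checkpoint kinase gene, was counted 2, 9, 21 and 5 times in KO replicates 1 to 4 and 1, 4, 6 and 0 times in WT replicates 1 to 4. For both genes the groups overlapped. Cdc20, an activator of the anaphase-promoting complex, was counted 21, 0, 30 and 0 times in KO replicates 1 to 4. In WT replicates 1 to 4 it was counted 8, 8, 15 and 2 times. Plk1 had 22 reads over the libraries labelled KO and 27 over those labelled WT, and Cdca8 had 44 (KO) and 40 (WT).

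**Figure D5:**
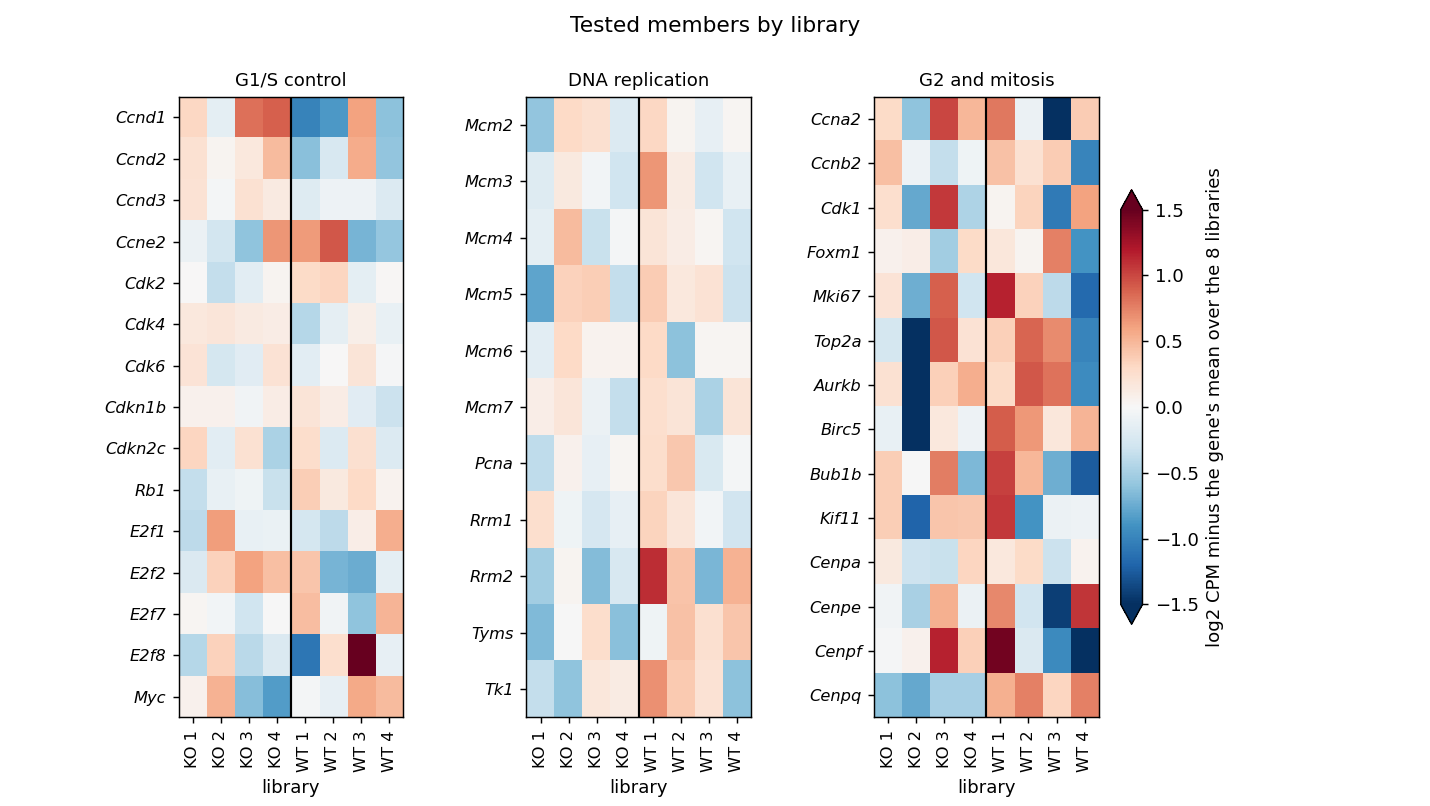
Log2 CPM of each tested member minus its mean over the 8 libraries, libraries labelled KO left of the line and labelled WT right of it, with red above and blue below the mean. Cenpq is below its mean in all 4 KO columns and above it in all 4 WT columns; Ccnd1 is above its mean in KO replicates 1, 3 and 4 and in WT replicate 3.

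Cenpq encodes a subunit of the constitutive centromere-associated network, in which it binds CENP-O, CENP-P, CENP-R and CENP-U. The gene (ENSMUSG00000023919) lies at mm10 chr17:40923051-40935047 on the minus strand. It was at 0.890, 0.797, 0.971 and 0.978 CPM in KO replicates 1 to 4 and at 2.08, 2.42, 1.78 and 2.44 CPM in WT replicates 1 to 4. The reads behind these values were 23, 23, 25 and 26 in the libraries labelled KO and 57, 59, 54 and 44 in those labelled WT. The libraries labelled KO lay close together and all below those labelled WT. The gene fell 2.39-fold (log2 fold change −1.26, SE 0.28, edgeR adjusted p = 0.0255), and the 95% interval before adjustment was 0.275-fold to 0.638-fold of the WT level.

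The size of this fall moved little without single libraries, and its call was marginal. Leaving out single libraries gave log2 fold changes from −1.34 to −1.20 and edgeR adjusted p from 0.0174 without WT replicate 3 to 0.0885 without WT replicate 2. The log2 fold change was −1.45 among the 4-digit animals (edgeR adjusted p = 0.0761) and −0.87 among those numbered 98 to 100 (edgeR adjusted p = 0.646). Over all 19 alternatives 9 called it, with adjusted p from 0.000822 with DESeq2 to 0.646 among the animals numbered 98 to 100. Cenpq was called with RLE scaling (with 3.67% of all genes), upper quartile scaling (3.81%), no low-count filter (3.38%), a stricter filter (3.84%), a non-robust fit (3.46%) and limma-voom (3.19%). The share of all genes called without KO replicates 1 to 4 was 2.22%, 2.98%, 1.55% and 1.7%, and it was 2.13%, 1.49% and 2.65% without WT replicates 1, 2 and 4.

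In the Ensembl gene as counted, the 5′ end of Cenpq overlaps that of Mut, the methylmalonyl-CoA mutase gene. Mut starts at position 40934685 and runs in the other direction. The RefSeq start of Cenpq, used for the promoter window below, lies inside the counted gene and at lower coordinates than the Mut start. With that start these 5′ ends would not overlap. Reads were counted by strand, and how many Mut reads fell on the wrong strand was not measured. Mut averaged 215.6 ± 4.96 CPM in the libraries labelled KO and 222.8 ± 18.2 CPM in those labelled WT (log2 fold change −0.05, SE 0.092, edgeR adjusted p = 0.844). On the side of lower coordinates the nearest tested gene was 9130008F23Rik, at a gap of 42492 bases, which rose (log2 fold change 2.92, SE 0.65, edgeR adjusted p = 0.0235). It was counted 16 to 40 times per library labelled KO and 0 to 6 times per library labelled WT. On the other side it was Cd2ap, at a gap of 1857903 bases, which was not called (log2 fold change −0.05, edgeR adjusted p = 0.85).

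Partners of Cenpq were not called. Of the complex, Cenpo averaged 3.31 ± 0.946 CPM in the libraries labelled KO and 3.84 ± 0.738 CPM in those labelled WT (log2 fold change −0.21, SE 0.25, edgeR adjusted p = 0.716). Itgb3bp, which encodes CENP-R, averaged 1.16 ± 0.539 CPM (KO) and 1.44 ± 0.413 CPM (WT) (log2 fold change −0.31, SE 0.40, edgeR adjusted p = 0.737). Cenpp and Cenpu had too few reads to be tested, with means of 0.269 and 0.164 CPM in the libraries labelled KO and 0.432 and 0.0764 CPM in those labelled WT. Of the 20 other genes listed for centromere assembly, 12 were tested, and 0 rose and 0 fell, with a median log2 fold change of 0.04. The smallest p were those of Hjurp, the chaperone of Cenpa (log2 fold change −0.22, edgeR adjusted p = 0.285), and Cenpx (0.19, adjusted p = 0.465).

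Promoter sequences are shown for Cenpq, as the 1 called member, and for Mcm3 and Ccnb2. The latter are chosen examples, a replication gene and a mitotic gene that hold elements named below. The sequences are from RefSeq on GRCm38.p6, from 250 bases before to 50 bases after the annotated start. They read 5′ to 3′ on the strand of the gene. Capitals mark matches on either strand to a CCAAT box (CCAAT), to the cell cycle homology region CHR (TTTGAA), and to 4 E2F-type elements (TTTCCCGC, TTTGGCGC, TTTCGCGC and TTTGCCGC). Cenpq is from chr17:40934525-40934824 (minus strand), Mcm3 from chr1:20820263-20820562 (minus strand) and Ccnb2 from chr9:70421505-70421804 (minus strand).
Cenpq: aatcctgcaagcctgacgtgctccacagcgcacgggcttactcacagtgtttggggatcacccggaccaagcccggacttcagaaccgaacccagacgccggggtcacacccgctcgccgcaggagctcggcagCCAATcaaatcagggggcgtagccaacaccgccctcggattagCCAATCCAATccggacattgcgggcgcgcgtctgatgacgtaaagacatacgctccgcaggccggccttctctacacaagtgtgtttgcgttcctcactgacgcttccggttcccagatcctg
Mcm3: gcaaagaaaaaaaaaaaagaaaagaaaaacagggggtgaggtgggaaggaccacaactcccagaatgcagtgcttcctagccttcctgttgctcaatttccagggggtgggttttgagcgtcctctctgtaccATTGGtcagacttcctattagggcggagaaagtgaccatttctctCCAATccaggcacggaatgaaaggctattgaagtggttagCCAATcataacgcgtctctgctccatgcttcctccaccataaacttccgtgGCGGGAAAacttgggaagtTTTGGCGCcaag
Ccnb2: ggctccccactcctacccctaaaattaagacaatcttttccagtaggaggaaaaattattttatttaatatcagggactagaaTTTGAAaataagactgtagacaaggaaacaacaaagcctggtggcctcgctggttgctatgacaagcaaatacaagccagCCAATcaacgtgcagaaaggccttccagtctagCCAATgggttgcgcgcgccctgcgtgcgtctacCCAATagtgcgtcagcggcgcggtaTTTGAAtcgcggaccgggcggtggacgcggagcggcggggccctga
The Cenpq window holds 3 CCAAT boxes, of which 2 are adjacent, and no match to the other elements. It also spans the start of Mut, at position 40934685. The Mcm3 window holds 3 CCAAT boxes and 2 E2F-type elements, and the Ccnb2 window 3 CCAAT boxes and 2 CHR elements.

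RefSeq promoter windows were matched for 38 of the 47 members, 42 windows in all because some genes have several starts. E2F-type elements were found in 36.4% of 11 windows of replication genes, 21.4% of 14 windows of G1/S genes and 5.88% of 17 windows of mitotic genes, and in 2.26% of all 32851 windows of the genome. The CHR hexamer was found in 70.6% of the windows of mitotic genes, 9.09% of those of replication genes and 14.3% of those of G1/S genes, and in 17.9% of all windows. CCAAT boxes were found in 94.1%, 81.8% and 57.1% of the windows of mitotic, replication and G1/S genes and in 37.4% of all windows. Matches to different motifs overlapped in 2 cases among the members. A match is a run of letters and no measured site, and a window without one may hold elements of other spelling.

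Other genes of the same processes were not called either. Among 24 other G1/S regulators 21 were tested, 0 rose and 0 fell, with a median log2 fold change of 0.02. The smallest p were those of Lin54, a DNA-binding subunit of the DREAM complex (log2 fold change −0.55, SE 0.18, edgeR adjusted p = 0.105), and Cdc25a, the phosphatase that activates Cdk2 (0.45, SE 0.19, adjusted p = 0.24). Among 45 genes of origin licensing and the replication fork 40 were tested, 0 rose and 0 fell, with a median of −0.10, and those with the smallest p were the clamp loader genes Rfc5 (−0.50, SE 0.19, edgeR adjusted p = 0.179) and Rfc2 (0.34, SE 0.14, adjusted p = 0.218). Among 32 genes of the spindle, its checkpoint and cytokinesis 18 were tested, 0 rose and 0 fell, with a median of −0.14. There the smallest p were those of Ccnf, which encodes cyclin F, at 0.67 (SE 0.18, edgeR adjusted p = 0.0553), and of the checkpoint gene Mad1l1, at −0.46 (SE 0.16, adjusted p = 0.129). At an unadjusted p under 0.05 there were 3, 5 and 2 genes in these lists and 0 of the centromere genes.

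Markers of other liver cells were set beside these results. Of 12 bile duct markers 11 rose, with a summed level of 207.2 to 314 CPM in the libraries labelled KO and 70.03 to 95.3 CPM in those labelled WT. Of 8 stellate cell markers 2 rose, with sums of 473 to 544 CPM (KO) and 408 to 435 CPM (WT). None of 10 macrophage, 8 endothelial and 10 hepatocyte markers was called. Of 9 markers of erythroid precursors 3 were tested and 0 called, and 2 were at 0 in all libraries. These differences in bile duct and stellate markers moved with the same labels as Cenpq, Ccnd3, Cdk4, Rb1 and Birc5, and their part in those levels was not tested.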

How the data were processed

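Livers of 4 mice labelled KO and 4 labelled WT were measured by RNA-seq, as 1 strand-specific library per mouse. The deposited values are raw counts of reads for each gene. The submitters' processing notes name bcl2fastq 2.19.1, GSNAP, featureCounts 1.5.1 and the build mm10 (GRCm38). According to the table's header line, Ensembl 81 genes were counted by the authors with strand setting 2 and a minimum mapping quality of 1, without an option for multi-mapping reads, and the table gives each gene's length in bases (another unit, other than counts). Symbols were matched for 45143 of 45706 gene identifiers, and 92 ERCC rows, which held 0 counts, were left out.

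The test was that of edgeR 4.0.16 in R 4.3.3: filterByExpr (minimum count 10), TMM scaling, and the quasi-likelihood test with robust estimation over the 14645 genes kept, with Benjamini-Hochberg adjustment and a call at an adjusted p under 0.05. Standard errors come from the quasi-likelihood F statistic. CPM values are TMM-scaled, log2 CPM used a prior count of 2, and TPM was computed from the counts and gene lengths. The members and lists were chosen with earlier results of these data known. Values in every library are given for members that were called or did not overlap and for those with the highest levels or largest fold changes in their class. Mki67, Top2a, Cdk1, Ccna2, Myc and, because an alternative called it, Ccnd2 were named after their values were seen. All pairs of libraries differed by more than sampling noise (smallest chi-square per degree of freedom 16.7). Alternatives used DESeq2 1.42.0, limma 3.58.1 (voom), other scalings and filters, the number series and subsets of libraries. The edgeR step was tested on simulated data.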

Additional observations from a re-analysis of the deposited data

Results flagged for a closer look

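In 88 groups of 4 libraries (40 tested members and 4 class means, each in both groups of mice) 4 had a highest or lowest library set apart from the others by more than Dixon's test allows at 95%. If the groups were independent, chance alone would flag about 1 in 20. They are not, because they share the same libraries and the class means hold the same genes. The number of flags therefore cannot decide on chance. The gap, as a share of the range of the group, was 0.849 for Ccnd1 in WT replicate 3, the highest of the WT libraries, and 0.906 for the mean level of the G1/S genes in the same library. It was 0.895 for Mcm7 in WT replicate 3, the lowest of the WT libraries at 6.61 CPM. It was 0.957 for Kif11, a spindle motor gene, in KO replicate 2, the lowest of the KO libraries at 0.416 CPM, against 1.39 to 1.44 CPM in the other 3.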

How the results depend on the processing

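RLE and upper quartile scaling, no filter, a stricter filter, a non-robust fit and limma-voom each called 0 members higher and 1 lower, Cenpq, as did the analysis reported. These scalings moved the median of all genes by at most 0.0246 (log2). DESeq2 called 2 lower, Rb1 (1 of the G1/S genes) and Cenpq. With the number series as a covariate 1 member was called higher, the G1/S gene Ccnd1. Among the 4-digit animals 1 was called higher, again Ccnd1, and 0 lower, and 0 were called in either direction among those numbered 98 to 100. With the replicate block 0 members and 3.85% of all genes were called, and Cenpq had edgeR adjusted p = 0.0523. No pairing by replicate number was seen. The correlation of the deviations ranged from −0.147 to 0.122 for same-numbered libraries and from −0.200 to 0.222 for differently numbered ones. So few values cannot exclude a pairing. Leaving out each library in turn gave 0 to 3 members higher and 0 to 2 lower, with 0 to 3 G1/S genes higher, 0 to 1 replication genes lower and 0 to 1 mitotic genes lower. All of these upper ends came without WT replicate 3.

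Of the 22 members whose fold change is given, 11 changed sign under some alternative (8 without counting the animals numbered 98 to 100), none of them called over the 8 libraries. Among the 4-digit animals the log2 fold change was 0.25 for E2f8, 0.20 for Myc, −0.56 for Ccna2, 0.19 for Ccnb2 and −0.56 for Cdk1. Among those numbered 98 to 100 it was −0.23 for Ccnd2, 0.19 for Pcna, 0.26 for Rrm2, 0.83 for Mki67 and 0.36 for Cenpa. Leaving out single libraries gave −0.0078 to 0.15 for Cdkn1b, −0.99 to 0.091 for E2f8, −0.012 to 0.84 for Ccna2, −0.38 to 0.36 for Cdk1, −0.49 to 0.41 for Mki67 and −0.21 to 0.016 for Cenpa. Of the other 18 tested members 17 changed sign under some alternative (14 without counting the animals numbered 98 to 100), and none was called under any. In TPM in place of CPM the KO minus WT difference of the mean log2 level was 0.13 in place of 0.05 for G1/S genes, −0.13 in place of −0.21 for replication, −0.10 in place of −0.13 for mitosis and −0.02 in place of −0.08 for all members. For the G1/S genes that shift exceeds the SD of the KO libraries, 0.0441, and not that of the WT libraries, 0.102. The cause of these differences was not tested. The low-count filter left out 6 of 20 mitotic genes. Without that filter all 47 members were tested, and Cenpq was again the 1 called.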
